A study of Mus musculus with 9 samples.

Results

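The genes described here make, break down and read out cyclic AMP (cAMP) below G protein-coupled receptors. They are the G protein alpha subunit genes Gnal and Gnas, the adenylyl cyclase genes Adcy3, Adcy7 and Adcy9, the phosphodiesterase genes Pde4a, Pde4b and Pde4d, and the transcription factor genes Creb1 and Crem. They were taken by name from a table of 26770 gene rows: each of the 10 names matched 1 row, and all 10 passed the filter on low counts. RNA of spleen-derived monocytes from wild-type (WT) mice was sequenced in 9 libraries, 3 in each of 3 groups. The LPS with octanal group was primed with low-dose LPS (lipopolysaccharide, from the outer membrane of bacteria) and then given 20 µM octanal, an aldehyde odorant, for 18, 19 and 20 hours in replicates 1, 2 and 3 by the sample labels. The LPS group received 40 ng/ml LPS for 5 hours. The untreated group received the solvent DMSO alone, at dilutions of 1 in 1000, 1001 and 1002 by the labels. These hours and dilutions go up by 1 with the replicate number, while the series text gives 18 hours and 1 in 1000 for the whole group, so the steps may be an error of the labels. The labels name DMSO for the untreated group only and do not say that culture times were equal. They give no LPS dose or hours for the LPS with octanal group. Octanal, LPS exposure, time and solvent therefore cannot be told apart. The labels give neither the age of the mice nor whether replicates were separate animals. P-values therefore measure the spread between these libraries, which may be technical.

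Receptors that couple to Gs proteins raise cAMP: the alpha subunit activates an adenylyl cyclase, which makes cAMP from ATP. In the olfactory epithelium odorant receptors use the olfactory alpha subunit encoded by Gnal and the cyclase encoded by Adcy3, whereas most other cells use the general alpha subunit encoded by Gnas. Phosphodiesterases of the PDE4 family break cAMP down and are the main cAMP-degrading enzymes of leukocytes, where raised cAMP dampens the release of inflammatory cytokines. Protein kinase A, activated by cAMP, phosphorylates the factor CREB (encoded by Creb1), and Crem encodes related activators and repressors, among them the cAMP-inducible repressor ICER.

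Both CREB and NF-kappaB motifs were looked for in RefSeq promoter windows of GRCm38.p6 (250 bases before to 50 after a gene start, both strands), because CREB binds the cAMP response element and NF-kappaB acts below the LPS receptor. The windows covered 8 of the 10 members with 19 starts. The full cAMP response element TGACGTCA was in 0 of these 19 and in 1.79% of 32851 windows. Its short form, TGACG or CGTCA, which lies within the full form, was in 7 windows of 5 members, Adcy7, Adcy9, Gnas, Pde4a and Pde4b, and in 20.8% of all windows. The NF-kappaB consensus was in 3 windows of 2 members, Adcy7 and Pde4b, and in 8.46% of all windows. The matches that overlap no annotated exon are printed 5′ to 3′ on the gene's strand as windows of 60 bases, with the matched letters in capitals, since members that were called higher (Pde4b), lower (Adcy9, Pde4a) or not at all (Adcy7) below all held one. The Adcy9 window stands before the gene, and the other 5 lie inside their genes, before internal transcript starts.
Adcy9, short cAMP response element (chr16:4420499-4420558, minus strand, upstream of the gene): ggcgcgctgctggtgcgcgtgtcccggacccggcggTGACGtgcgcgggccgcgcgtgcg
Pde4a, short cAMP response element (chr9:21184016-21184075, plus strand, intronic): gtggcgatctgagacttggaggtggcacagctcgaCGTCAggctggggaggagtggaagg
Adcy7, short cAMP response element (chr8:88282929-88282988, plus strand, intronic): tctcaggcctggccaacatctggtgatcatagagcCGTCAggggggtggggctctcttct
Adcy7, NF-kappaB consensus (chr8:88288897-88288956, plus strand, intronic): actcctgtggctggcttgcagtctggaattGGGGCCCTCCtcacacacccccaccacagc
Pde4b, NF-kappaB consensus (chr4:102569902-102569961, plus strand, intronic): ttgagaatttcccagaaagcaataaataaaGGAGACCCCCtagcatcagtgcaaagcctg
Pde4b, NF-kappaB consensus (chr4:102587469-102587528, plus strand, intronic): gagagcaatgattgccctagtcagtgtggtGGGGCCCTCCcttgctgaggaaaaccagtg
A match is a description of letters and not a bound site.

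Total counts were 29594291 to 38388421 per library. Marker genes of monocytes were present in every library, and so were those of neutrophils and T cells. All 11 classical monocyte markers were detected. They summed to 6307 to 9321 CPM in LPS with octanal, 3065 to 4242 CPM in LPS and 8100 to 18168 CPM in untreated libraries. CPM are counts scaled to TMM-adjusted library totals. Lyz2, the largest part of this sum, averaged 3395 CPM in LPS with octanal, 1433 in LPS and 6609 in untreated libraries. Ly6c2 averaged 0.875 CPM in LPS with octanal, 2.95 in LPS and 140 in untreated libraries. For Ccr2 the log2 fold change against untreated was -3.30 in LPS and -3.27 with octanal. Detection and the sum therefore do not show how far classical monocytes made up the treated libraries. Neutrophil markers summed to 8753, 6074 and 13663 CPM in LPS with octanal, 1884, 2318 and 1911 CPM in LPS, and 24276, 13940 and 27230 CPM in untreated replicates 1, 2 and 3. T cell markers summed to 1991, 1397 and 1346 CPM in LPS with octanal, 2713, 2335 and 2010 CPM in LPS, and 616, 1457 and 1079 CPM in untreated libraries. In LPS against untreated, 8 of 11 classical monocyte markers fell and 1 rose (edgeR, adjusted p under 0.05). There 7 of 10 macrophage, 13 of 13 neutrophil and 4 of 5 tested eosinophil and basophil markers fell. In the same comparison 9 of 9 T cell and 3 of 9 NK cell markers rose. Over all 15447 genes tested, 17.6% fell and 15.2% rose there. Of the neutrophil and T cell lists 0 genes were at 0 in all libraries of a group. With octanal against LPS 0 of 13 neutrophil and 0 of 9 T cell markers were called, where 0.00% of all genes were. In that comparison 13 of 13 neutrophil and 0 of 9 T cell markers had positive log2 fold changes, with medians of 1.95 and -0.62. With octanal against untreated 5 of 13 neutrophil markers fell (6.03% of all genes), and 0 of 9 T cell markers were called (8.67% of all genes). Of the 11 classical monocyte markers 5 fell and 1 rose there. In such bulk samples fewer cells of a type and less RNA per cell cannot be told apart, and the part of these shifts in the results on members was not tested unless a value is given.

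Per gene length, Gnas stood far above the other members in every library. Levels per length are the authors' FPKM, which scale fragments by gene length and library size. Gnas averaged 188 ± 15.4 FPKM in LPS with octanal, 238 ± 15.5 in LPS and 234 ± 22.7 in untreated libraries (SD, n = 3 each). In untreated libraries it was followed by Adcy7 (35.4 FPKM), Pde4b (17.4), Creb1 (12.4), Crem (10.6) and Pde4d (5.57). Adcy3 (2.80), Adcy9 (2.22), Pde4a (1.55) and Gnal (1.4997) came last. Gnas, Adcy7 and Pde4b did not overlap each other between untreated libraries, while from Pde4b downward each member overlapped the next. In LPS libraries Pde4b (50.5 ± 2.39 FPKM) had moved level with Adcy7 (45.9 ± 4.32 FPKM), with overlapping ranges, and Adcy9 was last at 0.309 ± 0.119 FPKM. With octanal, Pde4b at 43.3 ± 7.63 FPKM and Adcy7 at 35.3 ± 7.91 FPKM again overlapped, and Adcy9 at 0.631 ± 0.170 FPKM overlapped Pde4a at 0.775 ± 0.0518 FPKM.

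**Figure D1:**
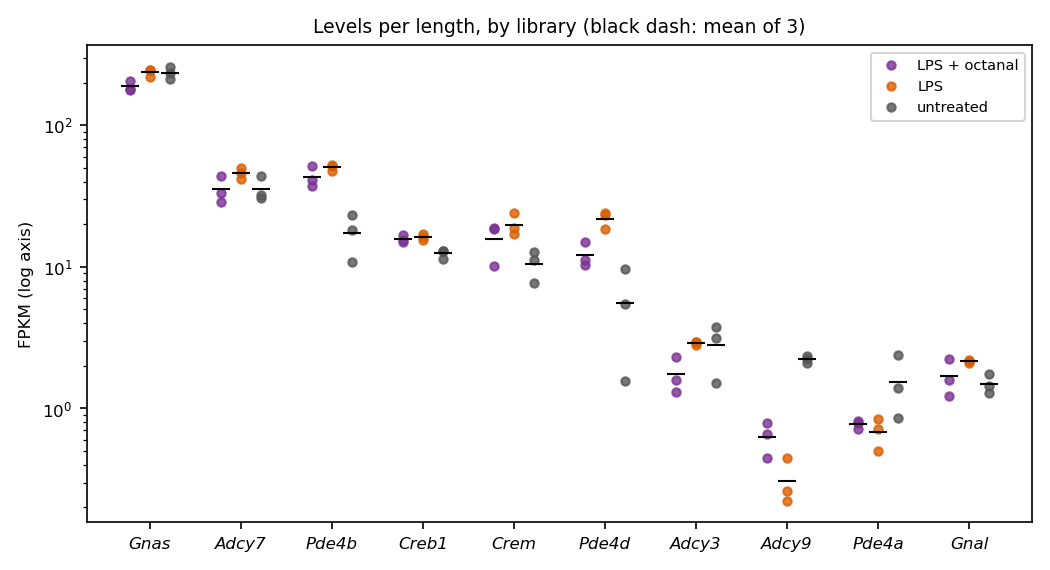
FPKM of the 10 members on a log axis, with 1 point per library, LPS with octanal, LPS and untreated side by side for each gene and a dash at each mean. Gnas lies above all others in every group, and Adcy9 has no overlap between untreated and the other groups.

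Across the whole set, 6 of 10 members passed the test in LPS against untreated, 4 higher (Pde4b, Pde4d, Creb1 and Crem) and 2 lower (Adcy9 and Pde4a). Over all 15447 genes tested 32.8% were called in this comparison, 15.2% higher and 17.6% lower. At an unadjusted p under 0.05 the count was also 6 members (45.1% of all genes), and by DESeq2 it was 5, without Creb1 (40.2% of all genes). When LPS and untreated libraries were fitted alone, Adcy9 and Pde4b passed, and the other 4 had an adjusted p of 0.0514 to 0.126. In 7 members the libraries of these groups did not overlap (51.5% of all genes), 5 higher (26.7%) and 2 lower (24.8%). Set against untreated, LPS with octanal had 2 of 10 members called, Pde4b higher and Adcy9 lower, while 8.67% of all genes were called (2.63% higher, 6.03% lower). An unadjusted p under 0.05 was reached by 5 members (27.4% of all genes), DESeq2 called 4 (18.2%), and the libraries of 5 did not overlap (29.8%), 2 higher (13.5%) and 3 lower (16.3%). Set against LPS, LPS with octanal had 0 of 10 members and 0.00% of all genes called by edgeR. In that comparison 1 member, Adcy9, had an unadjusted p under 0.05, against 22.3% of all genes. It was also the 1 member called by the DESeq2 Wald test, which called 11.6% of all genes. Limma-voom called 0 members, and 0 of the 15447 genes tested. The libraries of 5 members did not overlap (38.1% of all genes), Adcy9 higher (18.3%) and 4 members lower (19.9%), namely Gnas, Adcy3, Pde4d and Creb1. The median log2 ratio (log2 of the fold change) of the members was 0.28 in LPS against untreated (0.01 over all genes), 0.04 with octanal against untreated (-0.01 over all genes) and -0.24 with octanal against LPS (-0.05 over all genes). The 3 comparisons share libraries and are not independent of each other.

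**Figure D2:**
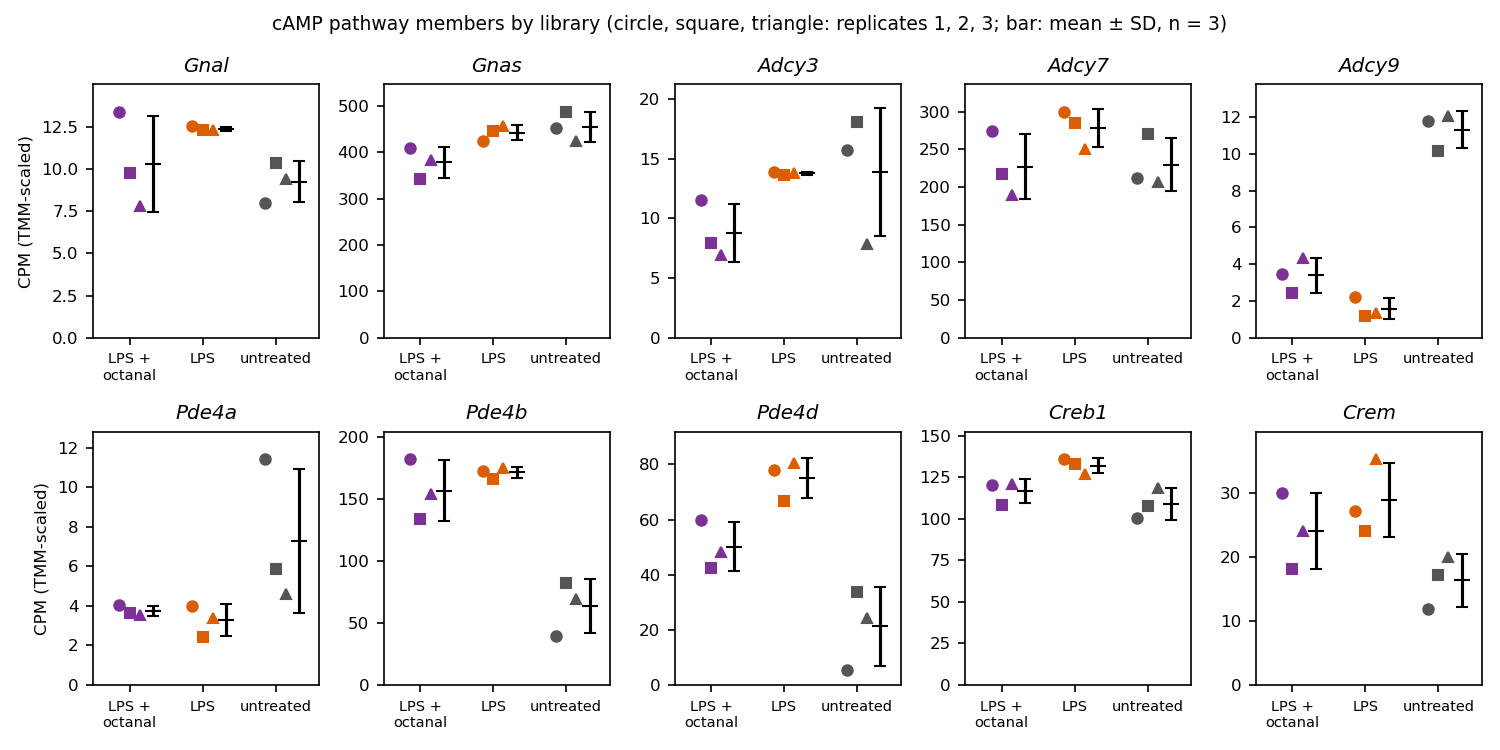
CPM of each member in every library, with replicates 1, 2 and 3 as circle, square and triangle and the mean ± SD of 3 beside them. Pde4b and Pde4d are higher, and Adcy9 lower, in all LPS and LPS with octanal libraries than in all untreated libraries.

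Neither G protein alpha subunit gene was called in any comparison. Gnal (ENSMUSG00000024524) was detected at low level, with 13.4, 9.78 and 7.77 CPM in LPS with octanal, 12.5, 12.3 and 12.3 CPM in LPS and 7.96, 10.3 and 9.39 CPM in untreated replicates 1, 2 and 3. All LPS libraries lay above all untreated ones, and the octanal libraries spanned both groups. Its log2 ratio was 0.42 in LPS against untreated (SE 0.208, adjusted p = 0.15, edgeR). The gene overlaps Mppe1 on the other strand and Chmp1b on the same strand, and whether counting used strand is not given, so reads may be shared. Gnas (ENSMUSG00000027523; chromosome 2, 174284320 to 174346744, protein-coding) had 409, 342 and 384 CPM in LPS with octanal, 425, 445 and 456 CPM in LPS and 451, 487 and 424 CPM in untreated libraries. Its LPS with octanal libraries lay below all libraries of both other groups. The differences were small: the log2 ratio was -0.22 against LPS (SE 0.109, adjusted p = 0.26) and -0.26 against untreated (SE 0.109, adjusted p = 0.16). The DESeq2 Wald test called the difference from untreated at an adjusted p of 0.0475. The Gnas locus makes several products from different promoters, which a gene count does not separate, and the counted gene Gm20721 overlaps it on the other strand.

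Of the cyclases, Adcy9 showed the largest change of any member and Adcy7 the highest level. Adcy9 (ENSMUSG00000005580; chromosome 16, 4287529 to 4420498, protein-coding), a widely expressed cyclase, had 3.48, 2.42 and 4.31 CPM in LPS with octanal, 2.24, 1.19 and 1.33 CPM in LPS and 11.8, 10.1 and 12.0 CPM in untreated libraries. The 3 groups did not overlap, with LPS lowest, LPS with octanal between, and untreated highest. It fell in LPS against untreated, with a log2 ratio of -2.83 (SE 0.317, adjusted p = 0.00096), and with octanal against untreated, by -1.73 (SE 0.303, adjusted p = 0.014). The second of these calls was lost without LPS with octanal replicate 2 (-1.54, adjusted p = 0.0555). With octanal, against LPS, its log2 ratio was 1.10 (SE 0.306, adjusted p = 0.098), and DESeq2 gave 1.13 with an adjusted p of 0.00756. These levels rest on 38 to 131 counts in the treated libraries and 310 to 438 in the untreated ones.

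Adcy9 was highest in untreated and lowest in LPS libraries by group mean. Marker sums do not tell cell types apart here, since those of neutrophils, classical monocytes, macrophages, and eosinophils and basophils all had this order. Single markers shared it less: with octanal against LPS, 13 of 13 neutrophil, 8 of 11 classical monocyte and 4 of 10 macrophage markers were higher. Eosinophil and basophil sums were low and overlapped, at 1.56 to 2.45 CPM in LPS with octanal and 1.18 to 1.99 CPM in LPS. Summed classical monocyte markers averaged 7668 CPM in LPS with octanal, 3745 in LPS and 13544 in untreated libraries, and macrophage markers averaged 891 CPM in LPS with octanal, 588 in LPS and 1888 in untreated libraries. Set per 1000 CPM of neutrophil markers, Adcy9 stood at 0.398, 0.398 and 0.316 CPM in LPS with octanal, 1.19, 0.513 and 0.695 CPM in LPS and 0.485, 0.728 and 0.442 CPM in untreated libraries. On this scale LPS and untreated libraries overlapped, and the octanal libraries lay below both. Log2 ratios of the summed neutrophil markers ran from -7.32 (Ltf) to -1.64 (Lcn2) in LPS against untreated. The order of the groups for Adcy9 on this scale can therefore depend on the markers summed.

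Adcy7 (ENSMUSG00000031659; chromosome 8, 88272403 to 88329962, protein-coding), known as the main cyclase of immune cells, had 274, 218 and 190 CPM in LPS with octanal, 300.0, 285 and 250.1 CPM in LPS and 212, 270 and 207 CPM in untreated libraries. The groups overlapped in every comparison, and the log2 ratios were 0.28 in LPS against untreated (SE 0.161, adjusted p = 0.21), -0.29 with octanal against LPS (adjusted p = 0.31) and -0.02 with octanal against untreated (adjusted p = 0.96). It held 61.2 ± 5.08% of the summed FPKM of the 10 cyclase genes in LPS with octanal, 60.9 ± 3.13% in LPS and 63.6 ± 6.77% in untreated libraries. Most of the rest was Adcy6, which is not among the members. The share of Adcy9 was 1.14 ± 0.465% in LPS with octanal, 0.407 ± 0.134% in LPS and 4.06 ± 0.734% in untreated libraries.

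Adcy3 (ENSMUSG00000020654; chromosome 12, 4133103 to 4213525, protein-coding), the cyclase of olfactory neurons, had 11.5, 7.92 and 6.91 CPM in LPS with octanal, 13.9, 13.7 and 13.8 CPM in LPS and 15.7, 18.1 and 7.86 CPM in untreated libraries. Octanal libraries lay below all LPS libraries, while untreated replicate 3 lay among the octanal ones. The log2 ratio was -0.65 with octanal against LPS (SE 0.303, adjusted p = 0.24) and -0.66 with octanal against untreated (SE 0.304, adjusted p = 0.20). Without untreated replicate 3 the comparison with untreated passed the test (-0.92, adjusted p = 0.0413). Cenpo overlaps Adcy3 on the other strand, so the counts may hold reads of both genes.

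The PDE4 genes went in opposite directions. Pde4b (ENSMUSG00000028525; chromosome 4, 102087543 to 102607259, protein-coding), the subtype that LPS is known to induce in monocytes and macrophages, had 182, 134 and 154 CPM in LPS with octanal, 173, 166 and 175 CPM in LPS and 39.7, 81.9 and 69.2 CPM in untreated libraries. All 6 treated libraries lay above all untreated ones. It rose 2.70-fold in LPS against untreated (log2 ratio 1.43, SE 0.236, adjusted p = 0.0036) and 2.47-fold with octanal against untreated (1.30, SE 0.235, adjusted p = 0.015). With octanal, against LPS, the groups overlapped, at a log2 ratio of -0.13 (SE 0.231, adjusted p = 0.76). Set per 1000 CPM of T cell markers it stood at 91.6, 96.0 and 114 CPM in LPS with octanal, 63.6, 71.3 and 87.1 CPM in LPS and 64.4, 56.2 and 64.1 CPM in untreated libraries. On that scale LPS and untreated libraries overlapped, and those with octanal lay above both. Il7r was the largest part of this sum, averaging 895 CPM in LPS with octanal, 1301 in LPS and 705 in untreated libraries. Cd3e averaged 68.3 CPM in LPS with octanal, 102 in LPS and 28.3 in untreated libraries. In LPS against untreated the log2 ratio was 0.88 for Il7r and 1.86 for Cd3e, so the order can depend on the markers summed.

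Pde4d (ENSMUSG00000021699; chromosome 13, 108449948 to 109953461, protein-coding) had 59.97, 42.5 and 48.2 CPM in LPS with octanal, 78.0, 66.9 and 80.4 CPM in LPS and 5.59, 33.8 and 24.5 CPM in untreated libraries. The 3 groups did not overlap, with LPS highest and untreated lowest, and untreated replicate 1 stood far below its group. It rose 3.53-fold in LPS against untreated (log2 ratio 1.82, SE 0.504, adjusted p = 0.025). That call was lost without untreated replicate 3 (1.93, adjusted p = 0.0547), LPS replicate 1 (1.77, adjusted p = 0.0692) and LPS replicate 3 (1.74, adjusted p = 0.0662). With octanal, against untreated, its log2 ratio was 1.24 (SE 0.497, adjusted p = 0.15), and with octanal against LPS it was -0.58 (SE 0.488, adjusted p = 0.50).

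Pde4d was highest in LPS and lowest in untreated libraries by group mean, as were the summed markers of T cells, NK cells and dendritic cells. The dendritic cell sums of octanal libraries (69.6 to 153 CPM) overlapped those of LPS (109 to 129 CPM) and untreated libraries (73.8 to 92.1 CPM). Untreated replicate 1 was lowest of the 9 libraries for Pde4d, T cell and NK cell markers. NK cell markers summed to 34.1, 21.99 and 27.0 CPM in LPS with octanal, 41.6, 47.7 and 42.1 CPM in LPS and 6.29, 24.7 and 13.1 CPM in untreated libraries. Per 1000 CPM of T cell markers Pde4d stood at 30.1, 30.5 and 35.8 CPM in LPS with octanal, 28.7, 28.7 and 40.0 CPM in LPS and 9.08, 23.2 and 22.7 CPM in untreated libraries. The treated groups overlapped on this scale, and the untreated libraries lay below both. In LPS against untreated the log2 ratio of Pde4d, 1.82, stood beside 1.86 for Cd3e and 0.88 for Il7r, the largest part of this sum. The order on this scale can therefore depend on the markers summed.

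**Figure D3:**
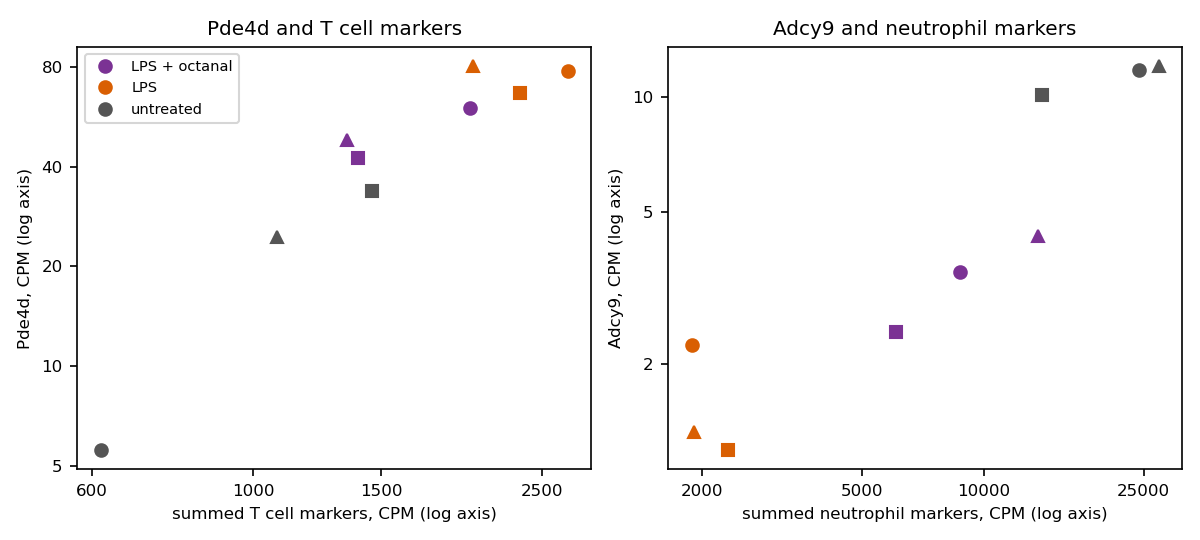
Pde4d CPM against summed T cell marker CPM (left) and Adcy9 CPM against summed neutrophil marker CPM (right), on log axes, 1 point per library with replicates 1, 2 and 3 as circle, square and triangle. Untreated replicate 1 is lowest for both measures on the left at 5.59 and 616 CPM, and the LPS libraries form the low end on the right.

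Pde4a (ENSMUSG00000032177; chromosome 9, 21165714 to 21213248, protein-coding) had 4.03, 3.65 and 3.56 CPM in LPS with octanal, 4.01, 2.41 and 3.38 CPM in LPS and 11.4, 5.86 and 4.60 CPM in untreated libraries. Treated libraries lay below all untreated ones, and untreated replicate 1 stood above the rest of its group. It fell in LPS against untreated (log2 ratio -1.16, SE 0.353, adjusted p = 0.035). Without untreated replicate 1 the change was -0.71 (adjusted p = 0.0827), and the call was also lost without LPS replicate 1 (adjusted p = 0.0574), 2 (adjusted p = 0.0983) or 3 (adjusted p = 0.079). With octanal, against untreated, it was -0.96 (SE 0.351, adjusted p = 0.12), and with octanal against LPS 0.20 (SE 0.351, adjusted p = 0.77). Pde4a per 1000 CPM of neutrophil markers was 0.460, 0.601 and 0.260 CPM in LPS with octanal and 2.13, 1.04 and 1.77 CPM in LPS. It was 0.471, 0.420 and 0.169 CPM in untreated libraries, so that LPS libraries lay above the rest. As for Adcy9, this order can depend on the markers summed.

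Summed over Pde4a, Pde4b, Pde4c and Pde4d, the family stood at 56.3 ± 10.2 FPKM in LPS with octanal, 73.2 ± 5.55 in LPS and 24.6 ± 9.72 in untreated libraries. Pde4b made up 76.9 ± 0.466% of it in LPS with octanal, 69.1 ± 2.09% in LPS and 71.5 ± 3.43% in untreated libraries, so it was the main PDE4 transcript throughout. The share of Pde4d was 21.6 ± 0.595% in LPS with octanal, 29.7 ± 1.92% in LPS and 20.3 ± 8.98% in untreated libraries. The transcript length behind its FPKM, described below, was 4057, 3991 and 4107 bases in LPS with octanal and 3600, 3725 and 3520 bases in LPS. Its share by FPKM therefore also moves with that length. Pde4a made up 1.40 ± 0.169% in LPS with octanal, 0.931 ± 0.183% in LPS and 7.85 ± 7.05% in untreated libraries.

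**Figure D4:**
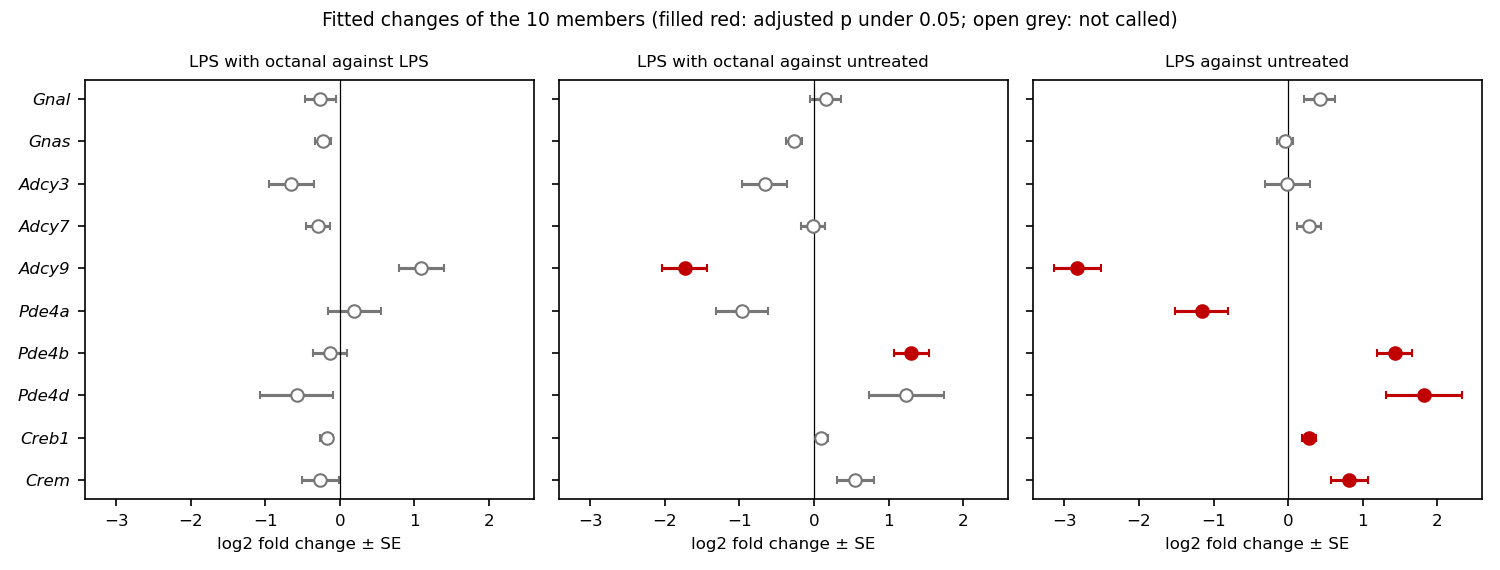
Log2 ratio (log2 fold change on the axis) ± SE of each member in the 3 comparisons, from the edgeR fit of all 9 libraries, with filled red points for an adjusted p under 0.05. Adcy9 (-2.83) and Pde4d (1.82) mark the ends in LPS against untreated, and no point is filled with octanal against LPS.

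The factor genes rose modestly with LPS. Creb1 (ENSMUSG00000025958; chromosome 1, 64532645 to 64604548, protein-coding) had 121, 109 and 121 CPM in LPS with octanal, 136, 133 and 127 CPM in LPS and 100.2, 108 and 119 CPM in untreated libraries. LPS libraries lay above those of both other groups. It rose 1.21-fold in LPS against untreated (log2 ratio 0.28, SE 0.0921, adjusted p = 0.046). That call stood close to the threshold and held in 4 of 18 alternative settings. Each library except untreated replicate 3 ended it when left out, with adjusted p of 0.0943 to 0.197. The other log2 ratios were -0.18 with octanal against LPS (adjusted p = 0.29) and 0.10 with octanal against untreated (adjusted p = 0.51).

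Crem (ENSMUSG00000063889) had 30.0, 18.1 and 24.2 CPM in LPS with octanal, 27.2, 24.2 and 35.4 CPM in LPS and 11.9, 17.2 and 20.0 CPM in untreated libraries. LPS libraries were all above untreated ones, and octanal libraries overlapped both groups. It rose 1.77-fold in LPS against untreated (log2 ratio 0.82, SE 0.249, adjusted p = 0.034). The call was lost without untreated replicate 1 (0.60, adjusted p = 0.105), untreated replicate 2 (adjusted p = 0.0635), each LPS replicate (adjusted p of 0.0509 to 0.131) and LPS with octanal replicate 3 (adjusted p = 0.0579). With octanal, against untreated, it was 0.56 (SE 0.248, adjusted p = 0.19), and with octanal against LPS -0.26 (SE 0.247, adjusted p = 0.55).

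Dividing each count by its FPKM and the library total gives the transcript length that the authors' FPKM implies. For Pde4b this length was 3519 to 3638 bases over the 9 libraries, and for Adcy7 6270 to 6405 bases. Creb1 and Crem varied most. Creb1 stood at 8212, 6338 and 7390 bases in LPS with octanal, 8460, 8425 and 8614 bases in LPS and 8554, 8545 and 8468 bases in untreated libraries. Crem stood at 1649, 1741 and 1222 bases in LPS with octanal, 1551, 1460 and 1552 bases in LPS and 1509, 1586 and 1444 bases in untreated libraries. The highest over the lowest length was 1.36 for Creb1 and 1.42 for Crem, against a median of 1.03 over 9922 genes with at least 100 counts in each library. For Pde4d it was 1.2 and for Pde4a 1.19. For Creb1, FPKM gave another value than counts: with octanal against untreated the log2 ratio was 0.34 by limma on log2 FPKM plus 0.1 (adjusted p = 0.0595).

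For each called member, the genes of at least 10 CPM with the most similar log2 CPM over the 9 libraries were named, by Pearson correlation over 8853 genes. This describes a pattern in 3 separated groups and carries no p. Adcy9 was closest to Fam129b (r = 0.988) and to Cd177 (r = 0.982), which encodes a neutrophil surface protein. Pde4d was closest to Sh2d2a (r = 0.998), the gene of a T cell adaptor. Pde4b was closest to Crlf3 (r = 0.987) and Ubac2 (r = 0.985), and Pde4a to Rpn1 (r = 0.973) and Pla2g4a (r = 0.973). Creb1 was closest to Paxbp1 (r = 0.970) and Slc25a38 (r = 0.967), and Crem to Akap9 (r = 0.963), which encodes a kinase A anchoring protein, and Zfp809 (r = 0.963).

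Upstream of the cyclases, 12 of 15 genes of Gs-coupled receptors could be tested, and 4 were called in LPS against untreated, a share near the 32.8% of all genes. Of these 2 rose, Adora2a (an adenosine receptor, log2 ratio 1.17, adjusted p = 0.00062) and Vipr1 (1.81, adjusted p = 0.044), and 2 fell, Hrh2 (a histamine receptor, -3.77, adjusted p = 0.0025) and Ptgir (the prostacyclin receptor, -1.53, adjusted p = 0.0068). Adora2a averaged 79.5 CPM in LPS with octanal, 65.0 in LPS and 28.9 in untreated libraries. With octanal, against untreated, Adora2a (1.46, adjusted p = 0.00052) and Vipr2 (1.82, adjusted p = 0.045) rose (2.63% of all genes) and 0 fell (6.03%).

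Other G protein subunit genes were called in the downward direction only. Of 10 tested genes of other alpha subunits and their chaperones 4 fell in LPS against untreated, where 17.6% of all genes fell: Gnaq (-1.16, adjusted p = 0.0014), Gna15 (-1.33), Gna12 (-0.87) and Gnai2 (-0.62, adjusted p = 0.015), the last encoding a subunit that inhibits cyclases. The median of this list was -0.42, against 0.01 over all genes. Of 10 beta and gamma subunit genes 5 fell in that comparison (17.6% of all genes), Gng2 (-2.29, adjusted p = 0.0015), Gng12 (-1.38), Gng10 (-0.72), Gng7 (-1.75) and Gnb2 (-0.50), with a list median of -0.36. With octanal, against untreated, Gna15 (-1.58), Gna12 (-0.83) and Gng2 (-1.35) fell, where 6.03% of all genes fell.

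Among the other cAMP phosphodiesterases 11 of 13 were tested, and 4 were called in LPS against untreated, where 32.8% of all genes were. Pde3b (1.77, adjusted p = 0.0066) and Pde7a (1.32, adjusted p = 0.018) rose in LPS against untreated, and Pde7b (-2.49, adjusted p = 0.00095) and Pde8b (-2.04, adjusted p = 0.0029) fell. Pde7b (-1.73) and Pde8b (-1.63) also fell with octanal against untreated, where 6.03% of all genes fell. Of 3 tested genes of other cyclases 0 were called by edgeR in any comparison. Adcy6, the most abundant of them, averaged 108 CPM in LPS with octanal, 124.1 in LPS and 82.0 in untreated libraries.

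Downstream of cAMP, 16 of 16 genes of protein kinase A subunits, inhibitors and anchoring proteins were tested. In LPS against untreated 4 rose (15.2% of all genes), the anchoring protein genes Akap8 (0.77, adjusted p = 0.0040), Akap13 (0.96), Akap11 (0.40) and Akap9 (0.39). In the same comparison 6 fell (17.6% of all genes): the anchoring protein gene Akap1 (-1.16, adjusted p = 0.031), the regulatory subunit genes Prkar1b (-2.70, adjusted p = 0.0012) and Prkar2b (-0.70), the kinase inhibitor genes Pkib (-1.65) and Pkig (-1.03), and the catalytic subunit gene Prkaca (-0.38, adjusted p = 0.033). With octanal, against untreated, Prkar1b (-1.82), Pkig (-0.85) and Akap1 (-1.34) fell (6.03% of all genes) and 0 rose (2.63%). Of 6 genes listed as other cAMP effectors 4 were tested. In LPS against untreated Rapgef3, encoding the exchange factor Epac1, fell (-1.09, adjusted p = 0.041), where 17.6% of all genes fell. The channel gene Hcn3 rose there (1.15, adjusted p = 0.0087), where 15.2% of all genes rose. Hcn3 was listed by its channel family, and whether cAMP acts on it was not tested.

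Of 12 CREB partners and coactivators 4 were called in LPS against untreated (32.8% of all genes). Crtc2 (0.44, adjusted p = 0.010) and Crtc1 (0.52, adjusted p = 0.039), both coactivators of CREB, rose. Sik1, a kinase that restrains those coactivators (-1.04, adjusted p = 0.0039), and Atf1 (-0.56, adjusted p = 0.0060) fell. Crtc2 also rose with octanal against untreated (0.42, adjusted p = 0.029), where 2.63% of all genes rose. Of 11 tested genes known to be driven by CREB 3 were called in LPS against untreated, again beside 32.8% of all genes: Junb rose (0.54, adjusted p = 0.030) and Egr2 (-2.70, adjusted p = 0.00063) and Fos (-1.94, adjusted p = 0.0024) fell. Nr4a1, named in the series title, had 36.5, 57.9 and 61.6 CPM in LPS with octanal, 29.9, 36.2 and 26.8 CPM in LPS and 27.4, 41.9 and 14.8 CPM in untreated libraries. Octanal libraries lay above all LPS libraries, at a log2 ratio of 0.75 (SE 0.343, adjusted p = 0.24).

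The channel genes that cAMP opens in olfactory neurons had few or 0 counts. Cnga2, a subunit of the cAMP-gated channel, and the receptor chaperone gene Rtp2 had 0 counts in the 9 libraries, which allows up to 3 counts in each. The other channel subunit genes Cnga4 and Cngb1 had 55 and 59 counts in all, and the chloride channel gene Ano2 had 10 counts in 1 library. Of the 5 genes on this list that could be tested, 1 fell in LPS against untreated, where 17.6% of all genes fell. It was Arrb2 (-0.68, adjusted p = 0.0049), which encodes the broadly expressed beta-arrestin 2.

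**Figure D5:**
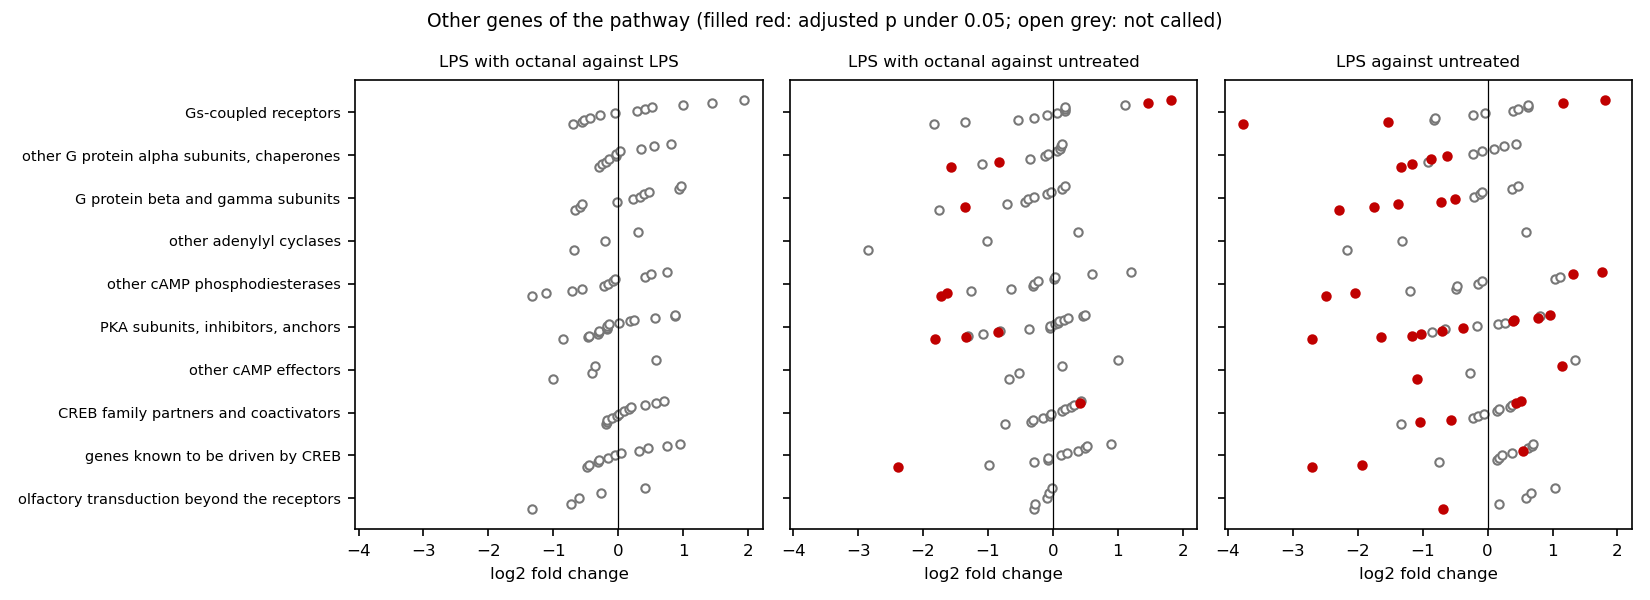
Log2 ratios (log2 fold change on the axis) of the other tested pathway genes by list in the 3 comparisons, 1 point per gene, filled red for an adjusted p under 0.05. The lists of G protein subunits have filled points only below 0, and no point is filled with octanal against LPS.

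Over these lists 0 genes were called by edgeR with octanal against LPS, where 0.00% of all genes were. The shifts of the marker lists given above ran alongside all these list counts, and their part in them was not tested. Of the alpha subunit genes that fell with LPS, Gnaq averaged 95.3 CPM in LPS with octanal, 54.3 in LPS and 121 in untreated libraries (log2 ratio 0.81 against LPS, adjusted p = 0.057). Gnai2 averaged 782 CPM in LPS with octanal, 534 in LPS and 823 in untreated libraries (log2 ratio 0.55 against LPS, adjusted p = 0.090). Gna12 averaged 44.9 CPM in LPS with octanal, 43.9 in LPS and 79.98 in untreated libraries, a log2 ratio of 0.03 against LPS (adjusted p = 0.92). Gna15 averaged 4.65 CPM in LPS with octanal, 5.50 in LPS and 13.9 in untreated libraries, a log2 ratio of -0.24 against LPS (adjusted p = 0.51).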

How the data were processed

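RNA from 9 libraries was extracted with TRIzol and prepared with an mRNA kit, per the labels' protocols. The authors deposited an unscaled count per gene and library, as the headers name it and its whole numbers show. The authors' FPKM are named as such in the headers. The submitters' processing notes name GRCm38 as the build; which aligner and counting tool were used, and whether strand was, is not given in the sources used here. The 10 lines without values were left out. Members and gene lists were chosen with earlier results of these data known, so no p was adjusted over the members alone.

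The count test was edgeR's (4.0.16, under R 4.3.3) quasi-likelihood test on all 9 libraries together, 1 coefficient a group, after filterByExpr left 15447 genes and TMM gave factors of 0.923 to 1.07. Adjusted p are Benjamini-Hochberg over all genes tested, called under 0.05, and are edgeR's unless another tool is named. CPM use TMM-scaled totals, and fold changes are fitted values. The scaling of Pde4b, Pde4d, Adcy9 and Pde4a to summed markers was added after the values were seen. Lists were described by counts of called genes. The rule for named genes took all members, up to 4 called genes of lowest p per list and any called gene against its list, the 2 most similar genes of at least 10 CPM for each called member, and Nr4a1; some items are not reported here. Limma 3.58.1 and DESeq2 1.42.0 served as alternatives. Gene positions are from GENCODE M21, which matched 22021 of 22035 Ensembl identifiers. Within groups, chi-square over degrees of freedom between replicates was 42.9 to 142, so none repeated another library within sampling noise. The fit was tested on simulated data of 15447 genes, of which 100 were changed 2-fold and 100 were changed 4-fold. Of 100 2-fold changes it recovered 38 in LPS against untreated, 39 with octanal against LPS and 40 with octanal against untreated. Of 100 4-fold changes it recovered 86, 82 and 87 in the same order, with 11, 4 and 8 false calls. A gene that was not called may therefore still have changed. The data had 5072 calls in LPS against untreated and 0 with octanal against LPS. These recovery rates, from simulations with another share of changed genes, may not hold for the data.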

Additional observations from a re-analysis of the deposited data

How the results depend on the processing

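The falls of Adcy9 and the rises of Pde4b in LPS against untreated passed the test in all 18 alternative settings tried for each. Those of Pde4d passed in 14 of 18, of Pde4a in 11 of 16 (it could not be tested with the FPKM filter), of Crem in 11 of 18 and of Creb1 in 4 of 18, all with the same sign. Members called in LPS against untreated numbered 2 in the fit of the compared groups alone and 2 to 5 when a library was left out. In LPS with octanal against untreated they numbered 4 with DESeq2, 1 in the fit of the compared groups alone, where Pde4b had an adjusted p of 0.05, and 1 to 3 with a library left out. In LPS with octanal against LPS the count was 1 with DESeq2 and 0 with each library left out.

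Over all genes, LPS against untreated gave 2387 to 5658 calls with a library left out, and 60.4% of calls were rises with either FPKM setting (46.4% from counts), with the median of 11831 shared genes shifted by 0.11. LPS with octanal against LPS gave 279 calls without a filter, 67 with at least 1 CPM in 3 libraries, 1792 with DESeq2, 1380 in the fit of both groups alone, 156 with FPKM plus 0.1, and 0 to 584 with a library left out. LPS with octanal against untreated gave 2810 with DESeq2, 404 in the fit of the compared groups alone and 298 to 2137 with a library left out. The causes were not tested.

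Signs turned for values near 0. In LPS against untreated Gnas was 0.029 with FPKM (either pseudocount). Adcy3 there was 0.048 with limma-voom, 0.062 with a replicate block, 0.15 with FPKM plus 0.1, 0.094 with FPKM plus 1 and -0.30 to 0.20 with a library left out. In LPS with octanal against untreated, Gnal ranged from -0.058 to 0.32 and Adcy7 from -0.16 to 0.11 with a library left out. The labels do not say whether replicate numbers pair the samples. Same-number correlations were -0.0898 to 0.179 and different-number ones -0.149 to 0.208, which cannot settle it. A replicate block gave 4257 calls in LPS against untreated, 0 in LPS with octanal against LPS and 923 in LPS with octanal against untreated. Among members the block ended the call of Creb1 alone (adjusted p = 0.0736). The pseudocount limits low genes: Adcy9 in LPS against untreated was -1.30 with FPKM plus 1. Adcy9 had 38 to 131 counts per treated library.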
